A study of Mus musculus with 10 samples.

Results

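The imprint control regions of Snrpn, Kcnq1ot1, Airn/Igf2r, Grb10, Plagl1 and Zrsr1 are described here in sperm and early embryos of the mouse. In the mouse the copy from the egg is the methylated one at each of them. Each region was taken as a fixed window of 7 kb on mm9, and its members are the cytosine positions that the deposited files list inside it. The 6 windows held 42 of the 339527 autosomal positions of the series. Of these, 38 lay in the central 3 kb of a window, called the core below, and 4 in the outer 2 kb on either side. Snrpn held 9 positions, Kcnq1ot1 7, Airn/Igf2r 5, Grb10 11, Plagl1 1 and Zrsr1 9. Only 16 of the 42 positions had a count in all 10 libraries.

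The assay was RRBS (reduced representation bisulfite sequencing). It reads fragments that the enzyme MspI cuts at CCGG sites, after bisulfite has converted unmethylated cytosines. It does not tell 5-methylcytosine from 5-hydroxymethylcytosine. The 5 groups of 2 libraries were sperm of the CAST/EiJ strain, wild-type (WT) and CKO zygotes at 13 h, and WT and CKO blastocysts at 96 h after fertilisation in vitro. CKO is the title given to embryos with the genotype maternal Tet3 KO, and how Tet3 was removed is not given in the sources used here. All embryos carry the strain label C57BL/6J x CAST/EiJ, came from eggs of females 7 to 10 weeks old and CAST/EiJ sperm, and were pooled as 40 to 50 zygotes or 4 blastocysts in a library. Libraries held 1005492 to 2535229 counts. The labels call the libraries of a group biological duplicates. Whether reads were sorted by parental allele is not given in the sources used here. If they were, an embryo value would stand for the copy of 1 parent, and a level near 0% could be that of the sperm-derived copy alone. No embryo value below is therefore read as maternal methylation that was kept or lost.

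An imprint control region carries methylation from only 1 of the parents, set in the egg or the sperm and then kept through the wave of demethylation after fertilisation. At maternally methylated regions the egg's copy is methylated and the sperm's copy is not, and the unmethylated copy often drives a non-coding RNA that silences neighbouring genes. The protein ZFP57 binds such regions at the methylated form of a short motif and helps to keep their methylation. TET3, supplied by the egg, oxidises 5-methylcytosine in the zygote.

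The 250 bases before the annotated transcription start are shown for 5 of the genes, because they differ in CpG and CCGG content and RRBS reads only near CCGG. They are from RefSeq on GRCm38.p6. CG is in capitals, and each sequence runs 5′ to 3′ on the strand of its gene. For Snrpn, the promoter that it shares with Snurf is shown.
Snrpn: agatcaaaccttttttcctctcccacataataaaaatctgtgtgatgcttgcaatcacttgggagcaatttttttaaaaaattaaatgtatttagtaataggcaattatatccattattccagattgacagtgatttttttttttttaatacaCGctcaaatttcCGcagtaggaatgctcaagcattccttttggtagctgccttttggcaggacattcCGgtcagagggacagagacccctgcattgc
Kcnq1ot1: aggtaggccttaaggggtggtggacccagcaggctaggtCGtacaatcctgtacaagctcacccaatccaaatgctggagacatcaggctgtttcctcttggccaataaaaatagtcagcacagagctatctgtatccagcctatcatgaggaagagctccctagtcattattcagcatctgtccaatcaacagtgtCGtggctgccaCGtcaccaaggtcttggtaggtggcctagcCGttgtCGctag
Airn: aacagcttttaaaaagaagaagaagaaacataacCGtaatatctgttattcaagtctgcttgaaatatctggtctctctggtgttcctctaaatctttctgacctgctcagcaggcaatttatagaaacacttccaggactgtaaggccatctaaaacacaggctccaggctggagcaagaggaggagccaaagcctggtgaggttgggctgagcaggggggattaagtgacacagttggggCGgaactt
Plagl1: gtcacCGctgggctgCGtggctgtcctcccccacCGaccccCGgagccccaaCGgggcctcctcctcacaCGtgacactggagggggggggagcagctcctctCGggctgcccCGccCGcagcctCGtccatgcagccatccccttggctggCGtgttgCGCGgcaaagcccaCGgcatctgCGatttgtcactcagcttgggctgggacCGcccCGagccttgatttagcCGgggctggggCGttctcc
Zrsr1: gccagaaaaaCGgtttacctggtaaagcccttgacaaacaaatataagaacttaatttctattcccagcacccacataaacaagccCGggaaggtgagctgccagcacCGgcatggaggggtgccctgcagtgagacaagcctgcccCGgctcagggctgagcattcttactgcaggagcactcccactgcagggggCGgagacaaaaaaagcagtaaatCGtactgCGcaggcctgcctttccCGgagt
The Snrpn stretch is chr7:60005200-60005449 (minus strand), Kcnq1ot1 chr7:143296548-143296797 (minus), Airn chr17:12741061-12741310 (plus), Plagl1 chr10:13090582-13090831 (plus) and Zrsr1 chr11:22971755-22972004 (plus).

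These stretches held 3 CpGs at Snrpn, 5 at Kcnq1ot1, 2 at Airn, 19 at Plagl1 and 8 at Zrsr1, against a median of 6 over 32851 RefSeq promoters. The motif CCGG, where MspI cuts, occurred in the Snrpn (1), Plagl1 (2) and Zrsr1 (4) stretches and in 47.1% of all promoters. The ZFP57 motif TGCCGC, searched on both strands, occurred once (1 match), at Plagl1, and in 8.68% of all promoters. All 7 gene symbols matched the RefSeq table. The measured cytosines are on mm9 and were not placed in these stretches, which are on another build. The rest of each control region was not searched for CpGs or motifs.

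Each core was read through very few DNA fragments. Positions within 100 bp of each other with the same total count in every library are probably covered by the same reads. By that rule, the 42 positions form 16 runs: the 7 positions of Kcnq1ot1 form 1, as do the 5 of Airn/Igf2r. Counts summed over a core therefore repeat reads, and the intervals over summed counts are too narrow. They cover counting error only, because PCR copies of a molecule cannot be told from separate molecules.

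**Figure D1:**
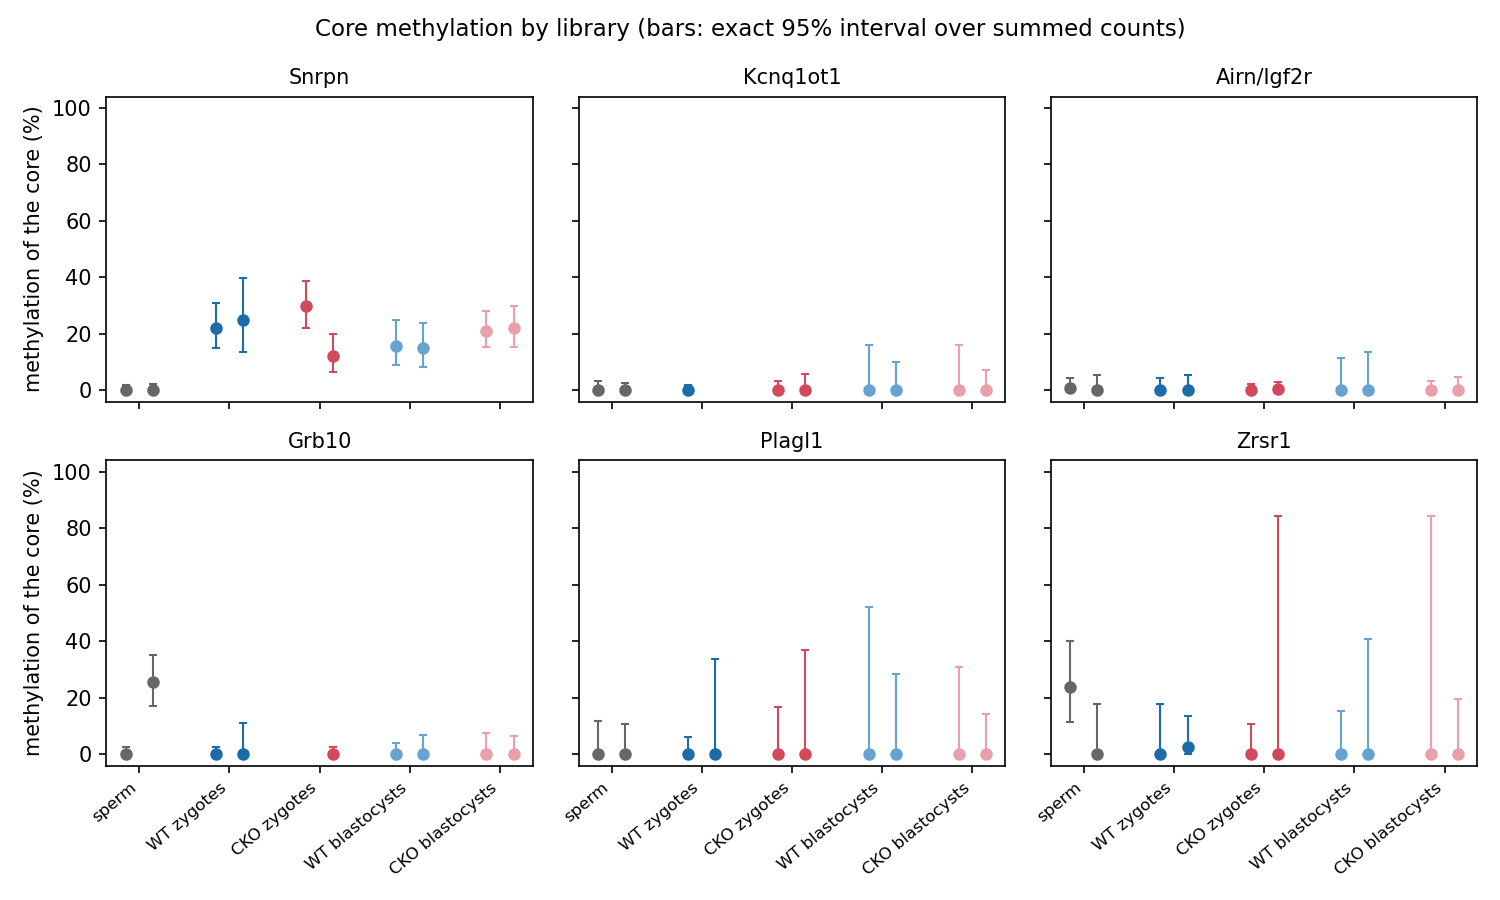
Methylation of the 6 cores in percent of summed counts (y axis) in each library (1 point each, replicate 1 left and replicate 2 right) of the 5 groups (x axis), with exact 95% Clopper-Pearson intervals. Embryo libraries lie between 12% and 29.8% at Snrpn and at or near 0% in the other 5 cores, and a library with no count in a core has no point.

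At Kcnq1ot1, whose promoter drives a long non-coding RNA that silences genes of its domain in cis, no methylated count was found in any library. Sperm had 0 of 252 counts, zygotes 0 of 371 and blastocysts 0 of 126. With each read counted only 1 time, these were 36, 53 and 18 counts, which allow shares of up to 8.33%, 5.66% and 16.7%. WT zygote replicate 2 had no count there.

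At Airn/Igf2r, where the non-coding RNA Airn runs antisense to the gene of the receptor that clears IGF2, 1 of 190 sperm counts and 1 of 735 embryo counts were methylated. The single embryo count came from CKO zygote replicate 2. The embryo level was 0.0694% ± 0.196 (SD, n = 8) and the sperm level 0.400% ± 0.566 (SD, n = 2), a difference of -0.331 points (exact permutation test over 45 arrangements, two-sided, p = 0.2). Without sperm replicate 1 the difference was 0.0694 points.

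Plagl1, which encodes a zinc finger transcription factor, was read at 1 cytosine, position 12810995 of chromosome 10. No count was methylated among 62 in sperm, 96 in zygotes and 50 in blastocysts, which allows up to 4.84%, 3.12% and 6.00%. All 10 libraries covered it, with 5 to 59 counts each.

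Grb10, an adaptor protein that restrains growth, had no methylated count in embryos, with 0 of 315 in zygotes and 0 of 247 in blastocysts. Summed over runs, 67 and 49 counts allow up to 4.48% and 6.12%. Position 11926252 lies among the positions of the largest run but was counted apart, because its totals differ. If the same molecules cover it, these sums repeat reads. The largest run alone had 41 and 32 counts, which allow up to 7.32% and 9.38%. CKO zygote replicate 1 had no count there. The sperm replicates differed from each other: replicate 1 had 0 of 148 counts and replicate 2 had 25 of 98. Summed over runs, these totals were 34 and 22 counts, again with position 11926252 counted apart. The methylated counts of replicate 2 were 4 of 11 at each of 6 positions between 11926218 and 11926260 of chromosome 11, and 1 of 6 at position 11926252. The first position of that run, 11926213, had 0 of 11. The 6 positions were probably covered by the same reads, so their methylated counts may come from as few as 4 reads.

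Zrsr1, a copy of a splicing factor gene that lies inside another gene, had methylated counts in both sperm libraries. In its core, sperm had 9 of 57 counts, all from replicate 1 and at 3 positions that shared 8 reads, and embryos had 1 of 141. In the outer part of the window, sperm had 4 of 34 counts methylated at position 22874116 of chromosome 11 (all in replicate 2) and 3 of 34 at position 22874145 (1 and 2 in the replicates). Embryos had 0 of 68 at each of these positions. A single zygote read at position 22869797 was methylated (1 of 1).

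Snrpn, which encodes a spliceosome protein and lies in the domain that corresponds to the human Prader-Willi region, was partly methylated in all 8 embryo libraries and in neither sperm library. Its core level was 22.2% and 25% in the WT zygote replicates, 29.8% and 12% in the CKO zygote replicates, 15.7% and 14.9% in the WT blastocyst replicates, and 21.2% and 21.9% in the CKO blastocyst replicates. Sperm had 0 of 193 and 0 of 163 counts. All embryo libraries lay above both sperm libraries. The embryo mean was 20.3% ± 5.84 (SD, n = 8), and the difference of 20.3 points had an exact permutation p of 0.0222 (two-sided), the smallest that 45 arrangements can give. As an unweighted mean over positions the difference was 16.9 points and the exact permutation p was 0.0667. With 1 sperm library left out the difference stayed at 20.3 points, and the exact permutation p was 0.111, the smallest that design can give. The 8 embryo libraries belong to 4 groups, so they are not replicates of 1 condition.

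**Figure D2:**
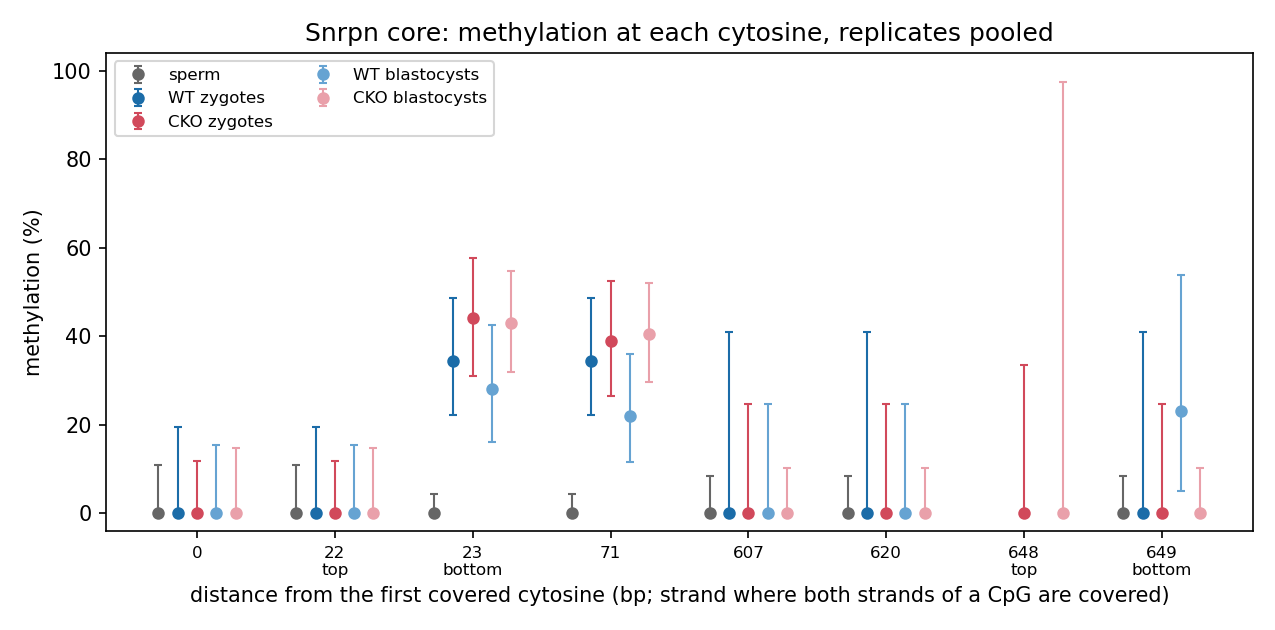
Methylation in percent (y axis) at each covered cytosine of the Snrpn core, by distance in bp from the first (x axis, not to scale), with replicates pooled per group and exact 95% intervals. The cytosines at 23 and 71 bp are methylated in all 4 embryo groups, and the cytosine at 22 bp, the other strand of the CpG at 23 bp, is at 0% in all groups.

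The methylation at Snrpn was not spread over the core but sat at position 67149489 of chromosome 7 and at position 67149537, 48 bp away. At position 67149489 the WT zygote replicates had 13 of 39 and 6 of 16 counts methylated. The CKO zygote replicates had 20 of 38 and 6 of 21. The lowest and highest shares, 20.0% and 52.6%, were from WT blastocyst replicate 2 (6 of 30) and CKO zygote replicate 1, and all exact intervals of the 8 libraries overlap.

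In the other blastocyst libraries position 67149489 had 8 of 20 counts in WT replicate 1, 19 of 40 in CKO replicate 1 and 15 of 39 in CKO replicate 2. Pooled, the level was 39.5% in zygotes (95% interval 30.4 to 49.1) and 37.2% in blastocysts (28.9 to 46.2). Sperm had 0 of 39 and 0 of 44 counts, and the 95% interval of the pooled counts reaches up to 4.35%. Zygotes and blastocysts thus overlap over nearly their whole range, and sperm lies apart.

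Position 67149537 shared its total count with position 67149489 in every library, so both were probably read on the same molecules. The numbers of methylated counts at the 2 positions were equal in 4 of the 8 embryo libraries and differed by at most 3 in the others. The position had 36.8% in zygotes and 33.3% in blastocysts.

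Position 67149488 is the cytosine next to 67149489, and such a pair is the top and bottom strand of a single CpG. The top strand had 0 of 91 embryo counts methylated (95% interval up to 3.97%) where the bottom strand had 93 of 243 (38.3%, interval 32.1 to 44.7). The intervals do not overlap. The top strand was covered in all 8 embryo libraries, with 2 to 22 counts, and shared its reads with position 67149466, also at 0 of 91. A core level therefore moves with how many of its counts are from each strand: CKO zygote replicate 2, the lowest library by its core at 12%, had 22 top-strand counts and was at 28.6% at position 67149489.

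Few CpGs had a gap of this size between strands, but most could not show one. In the whole series, 5722 CpGs had at least 20 embryo counts on both strands, and in 3.72% of them the strands differed by at least 30 points. Of the 4018 with at most 5% methylation in sperm on both strands, 9 (0.224%) did, the Snrpn CpG among them.

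**Figure D3:**
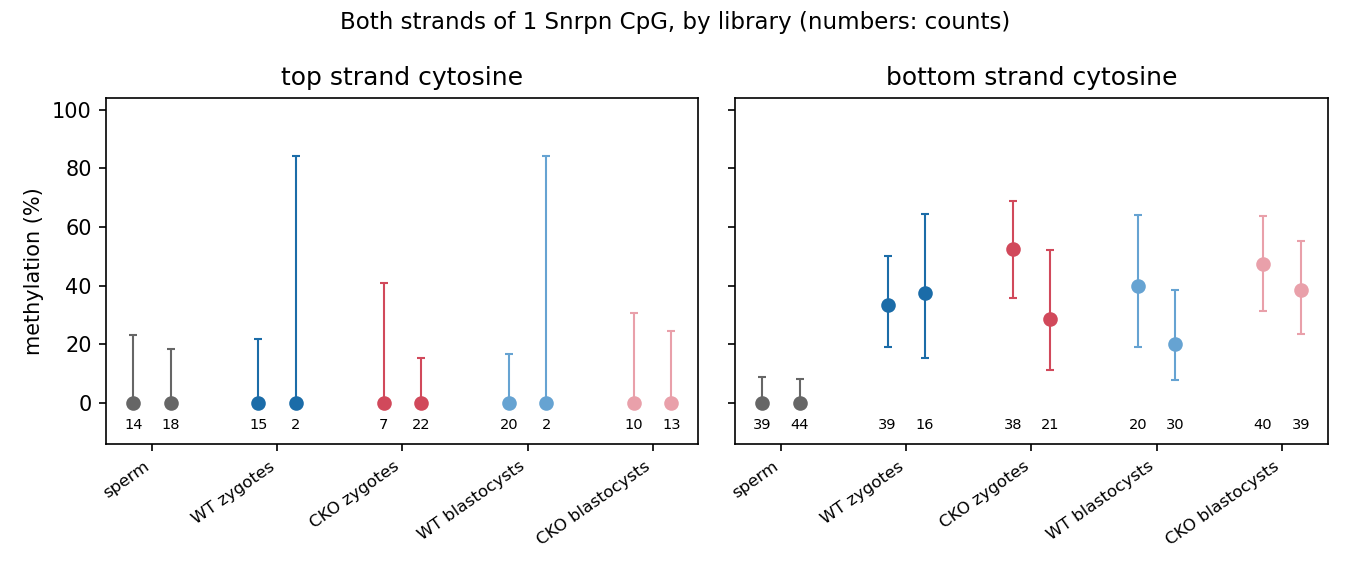
Methylation in percent (y axis) of the top and the bottom strand cytosine of the same Snrpn CpG in each library (x axis, by group), with exact 95% intervals and the number of counts printed under each point. The top strand is at 0% in all 10 libraries, and the bottom strand is at 0% in sperm and at 20.0% to 52.6% in embryos.

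A second group of Snrpn positions, 67150073, 67150086 and 67150115, was read by other fragments. The first and second had 0 of 67 embryo counts methylated each. Position 67150115 had 3 of 67, all 3 from the 10 counts of WT blastocyst replicate 2. Among the positions of the series with at least 10 sperm and 10 embryo counts and at most 5% in sperm, 2.28% of 77638 had at least 20% in embryos, against 2 of 22 (9.09%) among the members. Those 2 share reads, so they are not independent.

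Zygotes and sperm were compared by the edgeR quasi-likelihood test, fitted over 7507 tiles of 100 bp and cores with at least 10 counts in every library. Only the Snrpn and Airn/Igf2r cores and 3 tiles in them had enough counts. The Snrpn core was higher in WT zygotes, at 23.6% ± 1.96 against 0% in both sperm libraries (SD, n = 2; edgeR adjusted p = 0.00274), where 15.2% of all tested rows passed, 1.41% as higher and 13.8% as lower. It was higher in CKO zygotes too, at 20.9% ± 12.6 (SD, n = 2; edgeR adjusted p = 0.00457), where 6.9% of all rows passed, 1.31% as higher and 5.59% as lower. This was 1 of 5 member rows called in each comparison, and limma and the likelihood ratio test called 3 of 5. The member rows are not independent of each other. The Airn/Igf2r tile holds the same counts as its core, and the Snrpn tiles lie inside the Snrpn core and share reads. Over all rows limma called 10.2% for WT and 3.41% for CKO zygotes, and the likelihood ratio test 15% and 7.21%.

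The edgeR calls at Snrpn were lost when each read was counted only 1 time. With a single position per run, a setting chosen after the data were seen, the differences were 25 and 22.5 points, and edgeR's adjusted p was 0.0630 and 0.0762, where 15.2% and 6.87% of all rows passed. The tile that holds only position 67149537 did not pass either (edgeR adjusted p = 0.0702 in WT and 0.0730 in CKO). The call was also lost without either sperm replicate: edgeR's adjusted p was then 0.156 and 0.119 for WT and 0.344 and 0.259 for CKO zygotes. Without CKO zygote replicate 1 it was 0.160, with a difference of 12 points.

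Genotypes were compared to see whether these regions differ without maternal Tet3. No member passed: edgeR called 0 of 5 in zygotes and 0 of 5 in blastocysts, where 0% of all 7548 rows passed in each. No member had an unadjusted p below 0.05, where 4.05% of all rows did in zygotes and 2.72% in blastocysts, so 0 of 5 does not stand apart from the rest. Limma and edgeR's likelihood ratio test called 0 members and at most 0.0397% of all rows. At Snrpn, CKO minus WT was -2.69 ± 12.8 points in zygotes (SD of the difference), which is smaller than its spread. The CKO zygote replicates lay on both sides of the WT replicates, and without CKO zygote replicate 2 the difference was 6.23 points.

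In blastocysts the difference at Snrpn was 6.23 ± 0.781 points (SD), with both CKO libraries above both WT libraries (edgeR adjusted p = 1). At position 67149489 alone the level was 43.0% ± 6.39 for CKO against 30.0% ± 14.1 for WT (SD over 2 libraries), and the libraries of the genotypes overlapped. At position 67149537, on the same reads, they did not overlap, with a difference of 17.1 ± 9.85 points (SD, edgeR adjusted p = 1). Each of the other 5 cores held at most 1 methylated count in any embryo group. With each read counted 1 time, a count of 0 allows up to 10% in WT zygotes at Airn/Igf2r and up to 4.41% and 10.7% in WT and CKO zygotes at Plagl1. It allows up to 37.5% in WT blastocysts at Kcnq1ot1. Differences smaller than such bounds were not detectable.

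Stages were compared in the same fit. No member passed from zygote to blastocyst in WT (0 of 5, where 0.424% of all rows passed, 0.411% as lower) or in CKO (0 of 5, where 0.729% passed, 0.715% as lower), nor for the interaction of genotype and stage (0 of 5, where 0.0132% passed). No member had an unadjusted p below 0.05, where 9.39% of all rows did in WT, 10.5% in CKO and 2.21% for the interaction. Limma called 0 members and 0%, 0.0397% and 0% of all rows, and the likelihood ratio test 0 members and 2.37%, 2.04% and 0.0132%. The Snrpn core differed by -8.30 ± 2.05 points between WT blastocysts and zygotes and by 0.618 ± 12.6 points between CKO blastocysts and zygotes (SD). The genotype difference was 8.92 points larger in blastocysts. Each of these had an adjusted p of 1 in edgeR.

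The cores could not be compared with the outer parts of their windows, since 0 regions had 10 counts in both core and flank in every embryo library. With flanks reaching 25 kb beyond the window, 1 region met this, Airn/Igf2r, and its flank was at 0% in all 8 embryo libraries. Flanks reaching 250 kb, added after the data were seen, gave 10 counts in core and flank in at least 6 embryo libraries for 3 regions. The cores of these were at 0% in nearly every library, so a flank can hardly be lower. The values are therefore given with no test. Over all such flanking positions core minus flank was -10.7 points at Kcnq1ot1, -11.4 at Airn/Igf2r and -27.5 at Grb10.

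**Figure D4:**
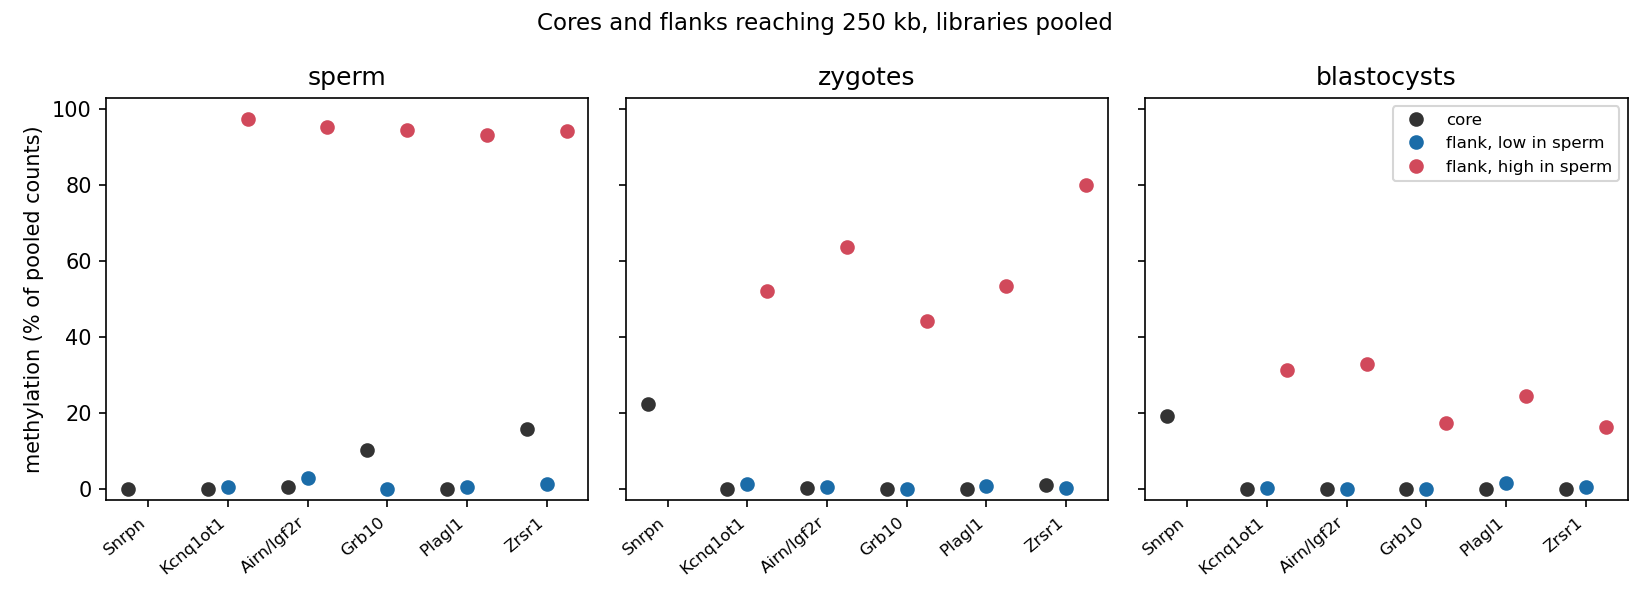
Methylation in percent of pooled counts (y axis) of the 6 cores (x axis) and of flanking positions within 250 kb that were at most 20% or at least 80% methylated in sperm, in sperm, zygotes and blastocysts. Cores other than Snrpn lie with the low flanking positions in embryos, while the high flanking positions are at 44.1% to 80.1% in zygotes and 16.3% to 32.9% in blastocysts, and Snrpn has no flanking position of either kind.

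Flanking positions that sperm had methylated were partly methylated in embryos, where the cores were at or near 0%. Around Kcnq1ot1 such flanks averaged 41.8% ± 19 (SD, n = 7 embryo libraries), with 26.5% in the lowest and 71.7% in the highest library. Around Airn/Igf2r they averaged 49.7% ± 19.7 (SD, n = 8), from 16.7% to 71.4%. Around Grb10 they averaged 27.8% ± 27.0 (SD, n = 7), from 1.72% to 67.6%. The flanks were chosen for high methylation in sperm and rest on 17, 14 and 8 positions with embryo counts, and the libraries come from 4 groups.

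Flanking positions unmethylated in sperm were low in embryos too. They averaged 0.854% ± 0.974 around Kcnq1ot1 (SD, n = 7) and 0.256% ± 0.322 around Airn/Igf2r (SD, n = 8). Around Plagl1, pooled embryo counts gave 1.04% in such positions and 39.3% in those methylated in sperm. Around Zrsr1 the same values were 0.378% and 42.0%.

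Other imprint control regions were looked up in windows placed from general knowledge of mm9, with no annotation of that build to check them. Of 9 further maternally methylated regions, 4 had at least 20 embryo counts (Mest, Gnas/Nespas, Inpp5f and Peg13), with 0% to 1.74% methylated. At Inpp5f 6 of 344 embryo counts were methylated, and at Peg13 12 of 1179. No embryo counts were listed for Peg3, Peg10, Nnat, Nap1l5 or Mcts2. In the paternally methylated windows, to which the limit on parental alleles applies as well, 87 of 88 embryo counts were methylated at H19 and 573 of 652 (87.9%) at Dlk1-Meg3.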

How the data were processed

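RRBS was measured in 10 libraries, 2 in each of 5 groups taken from the sample titles. The deposited files hold the authors' percent methylation per cytosine and the methylated and unmethylated read counts behind it, as the values show: the percent equalled the recomputed one within 0.001 points at 100% of positions. Per the submitters' processing notes, the build was mm9 and the tools Trim Galore and Bismark 0.10.1. No source used here gives their settings.

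A core is the central 3 kb of a window. Tiles of 100 bp, cores and window flanks with at least 10 counts in every library were tested on counts with edgeR 4.0.16 (R 4.3.3; quasi-likelihood, dispersion 0, Benjamini-Hochberg over all rows, threshold 0.05). The fit was also run on simulated embryo counts. That simulation held no sperm libraries, so it does not bear on the sperm contrasts. Embryo contrasts used the 8 embryo libraries and sperm contrasts all 10. The difference of embryos and sperm in a core was tested by exact permutation over libraries. An exact paired permutation test of cores against flanks was run but is not used, since a core at 0% can only be the lower. Intervals are exact Clopper-Pearson at 95%, and a count of 0 allows 3 counts of the total. The upper end of an interval and an allowed share are different bounds and cannot be compared with each other. Alternatives were limma 3.58.1 on log odds with 0.5 added, the likelihood ratio test, count minimums of 5 and 20, cores of 2 and 4 kb, an unweighted mean over positions with at least 5 counts, a single position per run, a replicate block and leaving out each replicate. Positions were named at 10% or more on at least 20 pooled embryo or sperm counts, at most 8 per region, with the strand partner. Other positions were named after their values were seen.

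The members, lists and rules were chosen with earlier results of these data known. The dispersion of 0 was taken from an earlier treatment of these data that set it after seeing how many calls it gave. Chosen after the data were seen were the 250-kb flanks, their split by sperm level (at most 20% or at least 80% on at least 5 counts), the 30-point strand comparison and the edgeR fit with a single position per run. The 250-kb comparison first asked for 10 counts in all 8 embryo libraries, which only Airn/Igf2r met. It was then relaxed to at least 6 libraries, which added Kcnq1ot1 and Grb10.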

Additional observations from a re-analysis of the deposited data

How the results depend on the processing

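Of 399 alternative values for 29 results, core-to-flank values left out, 370 kept their direction and call or, where there was no test, stayed within the spread. That share is no measure of robustness, since many of the values had little room to change. The core levels of Kcnq1ot1, Grb10 and Plagl1 stayed at 0%. Contrasts among embryos called 0 members with edgeR, limma and the likelihood ratio test. The difference of embryos and sperm at Snrpn was 16.9 points as an unweighted mean over positions (exact permutation p = 0.0667), and 19 to 21.5 points leaving out a replicate. The same difference at Airn/Igf2r was -0.731 to 0.0694 points leaving out a replicate. The number of members called between zygotes and sperm was 3 with limma and 3 with the likelihood ratio test for each genotype, 0 with a single position per run (Snrpn 25 points in WT and 22.5 in CKO), and 0 to 1 for WT and 0 to 2 for CKO leaving out a replicate. The member rows overlap and share reads, so such a count can hold the same reads more than 1 time. Of all rows, limma called 10.2% for WT and 3.41% for CKO, the likelihood ratio test 15% and 7.21%, and a single position per run 15.2% and 6.87%. Leaving out a replicate, 1.81% to 15.9% of all rows were called for WT and 0.160% to 8.69% for CKO. Leaving out a replicate, Snrpn ranged from 22.2 to 25 points for WT zygotes minus sperm, 12 to 29.8 for CKO zygotes minus sperm, -11.6 to 6.23 for CKO minus WT zygotes, -8.30 to 9.54 for CKO blastocysts minus zygotes and -0.00244 to 17.8 for the interaction. Airn/Igf2r ranged from -0.522 to 0.278 for CKO zygotes minus sperm. A fit without a replicate has fewer libraries, and a single position per run has fewer counts; for the other settings the cause was not tested. Flanks inside the window gave no core-to-flank value.

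Same-numbered replicates are not said to be paired, and their deviations correlated at -0.00402 to 0.0157 over tiles. With the replicate block, Snrpn kept its calls (edgeR adjusted p = 0.0233 for WT and 0.0345 for CKO zygotes against sperm), and no member's call changed. Over all rows the calls went from 32 to 14 and from 55 to 27 for the stages in WT and CKO, and from 1140 to 947 and from 518 to 345 for WT and CKO zygotes against sperm. In embryos, depth leaves Kcnq1ot1, Grb10 and Plagl1 with upper bounds alone, and these and Zrsr1 had too few counts for the test across tiles.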

Other observations

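The flanking positions within 250 kb that sperm had methylated are given by group, with 2 libraries pooled in each and no test. Over all counts of a library, methylation was 23.7% and 24.6% in WT zygotes and 30.6% and 30.4% in CKO zygotes. In blastocysts it was 11.99% and 11.46% in WT and 16.6% and 15.7% in CKO. Whether the flanks depart from this general difference was not tested. The pooled groups do not always cover the same positions. Around Kcnq1ot1 the flanking positions held 30.9% in WT and 67.8% in CKO zygotes (14 and 17 positions). They held 26.5% and 38.0% in the blastocysts (13 and 14 positions). Around Airn/Igf2r they held 65.3% in WT and 62.9% in CKO zygotes, and 27.3% and 40.8% in the blastocysts. The WT blastocyst libraries there were at 38.8% and 16.7% and the CKO blastocyst libraries at 55.7% and 29.2%, so the genotypes overlapped. The WT zygote libraries, at 63.3% and 69.5%, lay between the CKO zygote libraries, at 71.4% and 53.2%.

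Around Grb10 the pooled levels were 26.7% in WT and 66.3% in CKO zygotes, and 3.66% and 27.8% in the blastocysts. The levels of WT zygotes and CKO blastocysts rest on libraries far apart. The WT zygote libraries were at 36.2% and 8.33%, the WT blastocyst libraries at 1.72% and 8.33%, and the CKO blastocyst libraries at 12.3% and 60.0%. Around Plagl1 the levels were 44.4% in WT and 58.4% in CKO zygotes. The zygote libraries of the genotypes overlapped, at 50.0% and 35.7% in WT and 44.8% and 71.4% in CKO. In the blastocysts the WT level was 28.2% and the CKO level 20.4%, with CKO libraries at 12.8% and 28.3%. Around Zrsr1 the pooled levels were 62.0% in WT and 94.7% in CKO zygotes, and 24.5% and 10.2% in the blastocysts. The WT zygote libraries there were at 76.1% and 51.6%, and the CKO zygote libraries at 78.8% (26 of 33) and 100% (100 of 100). These zygote levels rest on 10 positions in WT and 6 in CKO. The cores of these 5 regions held at most 1 methylated count in any embryo group.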
